A study of Mus musculus with 8 samples.

Results

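Cholesterol is built from acetyl-CoA through mevalonate, isoprenoid diphosphates and squalene, and the genes of this route are switched on together by SREBP2, a transcription factor held in the endoplasmic reticulum while sterols are plentiful. Dividing blood cells use the route for membranes and for the isoprenoid groups that anchor small GTPases. The genes described here are 8 listed members of the route and its control, found by matching Entrez gene IDs to mouse symbols: Hmgcs1, Mvd, Idi1, Fdps, Fdft1, Sqle, Lss and Insig1. All 8 were among the 12830 genes of the deposited tables, and all 8 passed the filter on low counts that left 12330 genes to test. The list was drawn up as one of cholesterol synthesis and uptake, but it holds 7 synthesis enzymes and a sterol sensor, with no receptor or carrier for uptake.

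RNA was sequenced from AML410 cells, a mouse p53-/- acute myeloid leukaemia of monosomal karyotype (C57BL/6) that carries a hairpin against PU.1, the myeloid transcription factor encoded by Spi1. Doxycycline (Dox) given to the leukaemic mice turns off the GFP-linked hairpin, so that PU.1 returns gradually. GFP+ bone marrow cells were sorted from untreated mice (GFPhigh), and from mice after 2 days (GFPhigh-mid), 4 days (GFPmid) or 6 days of Dox (GFPlow), with 2 libraries in each of the 4 groups. All groups, untreated included, carry the hairpin and are labelled p53-/-, so time on Dox, the drug itself, the GFP gate and PU.1 level cannot be told apart. The titles call the libraries technical replicates and the series design speaks of duplicate mice, so p-values measure the spread between these libraries, which may be technical.

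The libraries held 9262047 to 11213292 counts. Spi1 averaged 15.2 ± 0.606, 98.4 ± 6.11 and 223 ± 8.35 CPM (each library's counts scaled to a common depth by TMM) at days 2, 4 and 6, against 10.6 ± 3.23 CPM in untreated cells (SD, n = 2 each), and it passed the test at days 4 and 6 but not at day 2 (edgeR adjusted p = 0.103). Trp53, which encodes p53, had 41.9 ± 1.22 CPM at day 6 and 63.8 ± 1.59 CPM in untreated cells (SD, n = 2 each), but the count spans the full gene and so says nothing of the deleted part. The myeloid progenitor and leukaemia markers were Ptprc, Kit, Myb, Mpo, Elane and Prtn3 (6 of 6 in the tables). They summed to 5330 and 5230 CPM at day 6, against 11500 and 10200 CPM in untreated cells. At day 2 they summed to 14400 and 13800 CPM. Of the 6, 4 fell and 1 rose at day 6 against untreated, with log2 fold changes from −2.12 to 4.64. Of all genes 63.6% passed the test there, 32% up and 31.6% down. Neutrophil markers (7 of 7) summed to 57800 and 70700 CPM at day 6, against 3890 and 2590 CPM in untreated cells. Monocyte and macrophage markers (7 of 7) summed to 10800 and 10700 CPM at day 6, against 5470 and 4970 CPM in untreated cells. By day 4 they were at 10900 and 11500 CPM, and 7 of 7 rose at days 4 and 6. The part of these shifts in the values of the 8 genes was not tested. Among other lineages, 6 of 9 erythroid markers were in the tables and summed to 40.8 and 64.5 CPM at day 6, against 14.5 and 6.62 CPM in untreated cells. The 6 B cell markers summed to 80.6 and 4.49 CPM in day 2 replicates 1 and 2, 20.7 and 31.9 CPM at day 6 and 36.8 and 16.5 CPM in untreated cells, and of 7 T and NK cell markers 1 was in the tables. Of 6 stroma and endothelium markers 3 were in the tables and summed to 110 to 216 CPM in all libraries. Day 2 replicate 1 stood apart, because a gene with no symbol took 13.3% of its counts, against 0.0883 to 0.149% in the other libraries.

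The 8 genes did not move as a block. Fdps rose at day 2 and remained high, Mvd and, subject to its overlap with the gene Ctsb, Fdft1 rose by day 4 and remained high at day 6, Sqle and Lss were lower at day 6 than in untreated cells, and Hmgcs1, Sqle and Insig1 were above untreated at day 4 in the edgeR quasi-likelihood test. Summed over the 8 genes, the level was 156 and 139 CPM in untreated cells, 191 and 176 CPM at day 2, 251 and 211 CPM at day 4, and 189 and 201 CPM at day 6. The day 4 libraries were thus the highest, and the day 6 libraries lay above both untreated libraries and near those of day 2. The place of day 6 above untreated rests on TMM scaling and on Fdps, at 54.2 CPM on average against 16.1 CPM. Before TMM scaling the 8 genes held 1675 and 1856 of 10174785 and 10905390 counts at day 6. The untreated libraries held 1838 and 1662 of 10253525 and 10110580 counts, so the groups overlapped. A test for any difference among the 4 groups (edgeR, adjusted over all genes, threshold 0.05) called 7 of the 8 genes, all but Hmgcs1 (adjusted p = 0.0531). This compares with 65.1% of all genes tested.

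**Figure D1:**
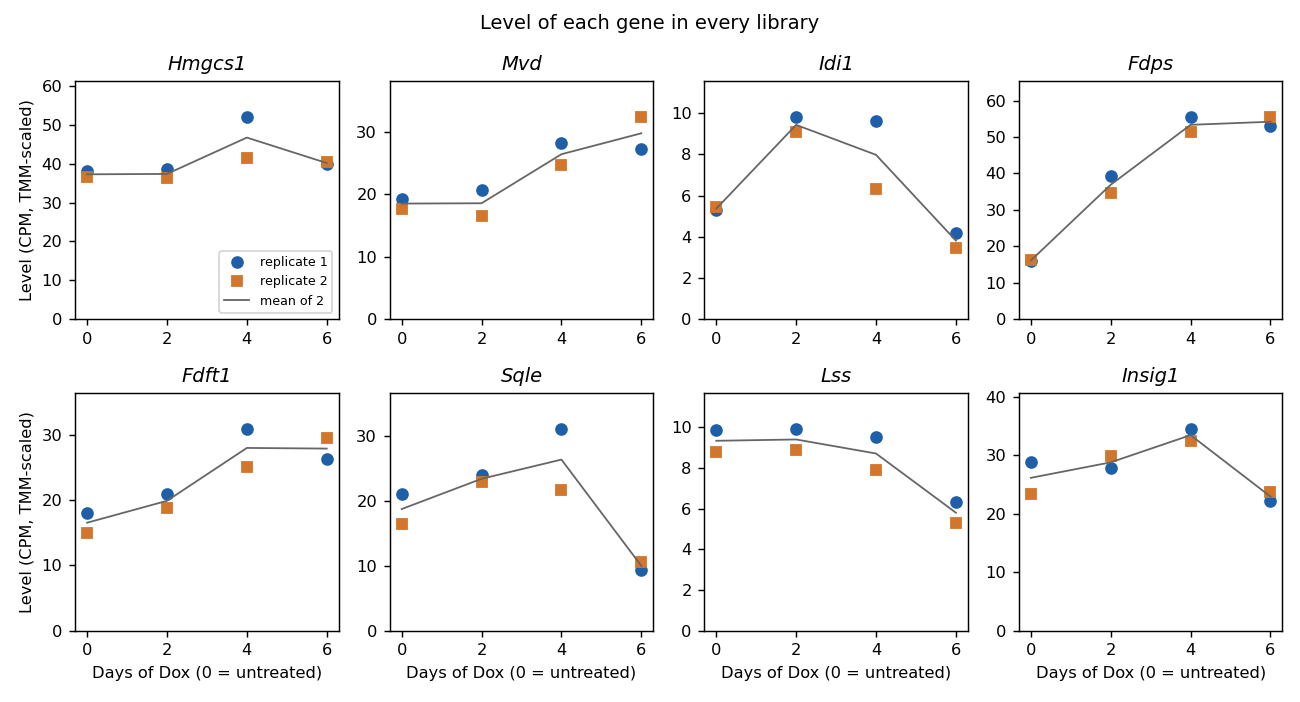
Level of each gene in CPM (vertical axis, TMM-scaled, from 0) against days of Dox (horizontal axis, 0 for untreated), with circles and squares for replicates 1 and 2 and a line through the mean of 2 libraries. Fdps climbs to 54.2 CPM on average at day 6, whereas Sqle drops to 9.97 CPM.

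Per length of gene, Hmgcs1 and Fdps were the highest in untreated cells, at 11.3 and 11 CPM per kilobase on average, with Hmgcs1 slightly the higher in each library. Mvd and Insig1, at 9.93 and 9.88 CPM per kilobase, lay below them and overlapped each other. Sqle at 6.80 and Fdft1 at 5.77 CPM per kilobase were next and overlapped each other. Lss followed at 3.01 and Idi1 at 1.87 CPM per kilobase, with no overlap between them. At day 6 the order was Fdps (37.1), Mvd (16.0), Hmgcs1 (12.2), Fdft1 (9.75), Insig1 (8.66), Sqle (3.63), Lss (1.87) and Idi1 (1.33 CPM per kilobase). No neighbours in that order had overlapping libraries. By this measure Fdps stood at the 79.0th percentile of tested genes at day 6, against the 51.3rd in untreated cells.

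Upstream sequence was looked at for the genes that passed the test at day 4, since SREBP2 acts through short elements near the start of its targets together with the CCAAT-binding factor NF-Y. The RefSeq promoter table (GRCm38.p6) matched 5 of the 8 genes, namely Hmgcs1, Mvd, Idi1, Lss and Insig1, of which Hmgcs1, Mvd and Insig1 were called at day 4. Their bases upstream of the annotated start are shown 5′ to 3′, with capitals marking a sterol regulatory element core (TCACNCCAC), an E-box (CACGTG) or a CCAAT box (CCAAT) on either strand. They lie at chr13:119690101-119690350 (plus strand), chr8:122443423-122443672 (minus strand) and chr5:28071162-28071362 (plus strand).
Hmgcs1: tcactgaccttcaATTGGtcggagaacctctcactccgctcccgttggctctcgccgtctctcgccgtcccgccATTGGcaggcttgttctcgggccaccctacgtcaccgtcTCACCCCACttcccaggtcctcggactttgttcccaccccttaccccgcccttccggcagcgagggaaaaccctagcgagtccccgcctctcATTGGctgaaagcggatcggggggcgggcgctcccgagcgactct
Mvd: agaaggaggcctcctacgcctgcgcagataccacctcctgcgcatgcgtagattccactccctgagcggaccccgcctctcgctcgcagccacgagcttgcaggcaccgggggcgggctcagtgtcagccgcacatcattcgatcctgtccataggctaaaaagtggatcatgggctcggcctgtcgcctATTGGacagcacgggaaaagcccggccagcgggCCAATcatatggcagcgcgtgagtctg
Insig1: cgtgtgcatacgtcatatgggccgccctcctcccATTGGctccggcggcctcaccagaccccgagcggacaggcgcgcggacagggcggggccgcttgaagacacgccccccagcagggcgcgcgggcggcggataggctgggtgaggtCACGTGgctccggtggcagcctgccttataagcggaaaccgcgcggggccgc

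In the windows of 300 bases that run past the start, all 5 matched genes held a CCAAT box, against 37.4% of the 32851 windows in the table. Of the 5, only Hmgcs1 held the sterol element core, at 137 to 129 bases before its start, a motif in 1.24% of windows. Only Insig1 held the E-box, at 101 to 96 bases before its start, a motif in 7.15% of windows. That distance is counted from the start at 28071412, while the Insig1 sequence shown stops at 28071362, ahead of an earlier annotated start. The motifs do not overlap in the sequences shown. A match is a description of the letters and not a measured binding site.

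Hmgcs1 makes HMG-CoA, the substrate of the rate-limiting reductase (gene 208715, chromosome 13, 119690351 to 119708260, mm10). Its counts gave 38 and 36.5 CPM in untreated cells, 38.5 and 36.2 CPM at day 2, 51.9 and 41.5 CPM at day 4, and 40 and 40.3 CPM at day 6. Both day 4 libraries were above all the others, replicate 1 by the wider margin, and day 2 and untreated overlapped. The log2 fold change against untreated was 0.33 at day 4 (SE 0.11, edgeR adjusted p = 0.0266). It was 0.00 at day 2 (95% interval −0.24 to 0.25) and 0.11 at day 6 (−0.14 to 0.35). The day 4 call did not hold without untreated replicate 2 (0.30), day 4 replicate 1 (0.16), or day 6 replicate 1 or 2 (0.32 each), nor in DESeq2 (adjusted p = 0.089).

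Mvd, mevalonate diphosphate decarboxylase, makes isopentenyl diphosphate, the unit from which all isoprenoids are built (gene 192156, chromosome 8, 122433596 to 122443422). It stood at 19.3 and 17.7 CPM in untreated cells, 20.6 and 16.5 CPM at day 2, 28.2 and 24.6 CPM at day 4, and 27.2 and 32.3 CPM at day 6. The 4 libraries of days 4 and 6 were all above the 4 earlier ones, and those of day 4 and day 6 overlapped. Mvd rose at day 6 by 0.69 on the log2 scale against untreated (SE 0.14, edgeR adjusted p = 0.0012) and at day 4 by 0.51 (SE 0.14, edgeR adjusted p = 0.0103). The day 6 call held without any 1 library (0.56 to 0.80), and the day 4 call was lost without untreated replicate 2 (0.45) or day 4 replicate 1 (0.41). Day 2 gave 0.00 (95% interval −0.32 to 0.32).

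Idi1 encodes the isomerase that turns isopentenyl into dimethylallyl diphosphate (gene 319554, chromosome 13, 8885606 to 8892396). In untreated cells and at day 6 it was the least abundant of these genes. It had 62 and 65 counts in untreated cells, 85 and 101 at day 2, 106 and 65 at day 4, and 37 and 32 at day 6, or 5.28 and 5.45, 9.80 and 9.07, 9.62 and 6.34, and 4.17 and 3.46 CPM. The day 2 libraries lay above and the day 6 libraries below both untreated ones, and the day 4 libraries were far apart. Idi1 fell at day 6 against day 4 by 1.07 on the log2 scale (SE 0.25, edgeR adjusted p = 0.00735), a call lost without day 4 replicate 1 (−0.73) or day 6 replicate 2 (−0.93). Against untreated no day passed, with 0.81 at day 2 (95% interval 0.32 to 1.30, edgeR adjusted p = 0.0584), 0.58 at day 4 (edgeR adjusted p = 0.0549) and −0.49 at day 6 (edgeR adjusted p = 0.109). Day 2 passed without day 4 replicate 1 (edgeR adjusted p = 0.0451) or day 4 replicate 2 (edgeR adjusted p = 0.0434), where other libraries set the spread, and day 4 passed without day 4 replicate 2 (0.84).

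Fdps joins isoprenoid units into farnesyl diphosphate, which feeds sterols, ubiquinone, dolichol and protein prenylation, and it is the enzyme that bisphosphonate drugs block (gene 110196, chromosome 3, 89093588 to 89101967). It stood at 16.0 and 16.2 CPM in untreated cells, 39.3 and 34.5 CPM at day 2, 55.4 and 51.3 CPM at day 4, and 53.0 and 55.4 CPM at day 6. Each step up to day 4 separated the libraries fully, and days 4 and 6 overlapped. Against untreated the log2 fold change was 1.19 at day 2 (SE 0.10, edgeR adjusted p = 0.000206), 1.73 at day 4 (SE 0.10, edgeR adjusted p = 1.17e-07) and 1.75 at day 6 (SE 0.10, edgeR adjusted p = 5.53e-08). From day 4 to day 6 it was 0.02 (95% interval −0.18 to 0.23). Fdps was the only one of the 8 genes called at day 2, where 6.13% of all genes were called, 4.18% up and 1.95% down. Without day 2 replicate 1 its day 2 value was 1.10, and all 3 calls against untreated held without any 1 library and in every alternative fit. Fdps has 6 processed pseudogenes that match its transcripts at 90% identity or more over at least 200 bases, none of them in the tables, and how reads shared with them were counted is not given in the sources used here. Gm43738, annotated as a protein-coding gene on the same strand and not in the tables, shares 1124 exon bases with Fdps, so reads from the pair cannot be told apart. Idi1 has 4 such pseudogenes and Fdft1 has 1, and their part in these values was not tested.

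Fdft1, squalene synthase, makes the committed step towards sterols (gene 14137, chromosome 14, 63145150 to 63181687). It stood at 18.1 and 15.0 CPM in untreated cells, 21.0 and 18.8 CPM at day 2, 30.9 and 25.1 CPM at day 4, and 26.3 and 29.5 CPM at day 6. The libraries of days 4 and 6 were above the 4 earlier ones and overlapped each other. Fdft1 rose against untreated by 0.76 on the log2 scale at day 6 (SE 0.14, edgeR adjusted p = 0.000691) and by 0.76 at day 4 (SE 0.14, edgeR adjusted p = 0.000964), and both calls held without any 1 library. At day 2 it was 0.26 (95% interval −0.06 to 0.58). The end of Fdft1 shares 774 bases, 27% of its counted length, with Ctsb on the opposite strand, at chromosome 14, 63145150 to 63145923. Ctsb, a lysosomal protease gene, had 18383 and 18934 counts at day 6, against 6674 and 5510 in untreated cells, while Fdft1 had 234 and 273 counts at day 6, against 212 and 179 in untreated cells. Nothing read here says whether counting used strand. Reads of the pair therefore cannot be told apart, and the change in Fdft1 is uncertain. Hmgcs1, Idi1 and Lss share 557, 323 and 381 exon bases with Gm48342, Gm48574 and 4930483K19Rik on the opposite strand. None of these neighbours is in the tables, and their part in the counts was not tested.

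Sqle, squalene epoxidase, adds the oxygen needed for ring closure and is a control point of the late route (gene 20775, chromosome 15, 59315092 to 59331193). It stood at 21.0 and 16.4 CPM in untreated cells, 23.9 and 22.8 CPM at day 2, 31.0 and 21.6 CPM at day 4, and 9.35 and 10.6 CPM at day 6. Both day 6 libraries were below all 6 others, and both day 4 libraries were above both untreated ones. Sqle fell at day 6 by 0.90 on the log2 scale against untreated (SE 0.20, edgeR adjusted p = 0.00184) and by 1.4 against day 4 (SE 0.19, edgeR adjusted p = 0.000369). Both calls held without any 1 library, with ranges of −1.07 to −0.71 and −1.63 to −1.12. The rise at day 4 was 0.50 (SE 0.17, edgeR adjusted p = 0.0328). It was not called without untreated replicate 2 (0.33), day 4 replicate 1 (0.22), or day 6 replicate 1 or 2 (0.49 each).

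Lss, lanosterol synthase, closes the rings to form the first sterol (gene 16987, chromosome 10, 76531565 to 76557139). It stood at 9.88 and 8.80 CPM in untreated cells, 9.92 and 8.89 CPM at day 2, 9.53 and 7.90 CPM at day 4, and 6.31 and 5.30 CPM at day 6. The day 6 libraries were below all others, and the other 3 groups overlapped. Lss fell at day 6 by 0.69 on the log2 scale against untreated (SE 0.19, edgeR adjusted p = 0.00818) and by 0.59 against day 4 (SE 0.19, edgeR adjusted p = 0.0396). The call against untreated was lost without day 6 replicate 2 (−0.56) and in DESeq2 (−0.68, adjusted p = 0.0524), and the call against day 4 was lost without day 4 replicate 1 (−0.45), day 6 replicate 1 (−0.72) or day 6 replicate 2 (−0.46). At days 2 and 4 it was 0.01 and −0.10 against untreated, with 95% intervals of −0.39 to 0.40 and −0.49 to 0.29.

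Insig1 encodes a membrane protein that, when sterols are plentiful, holds SREBP2 and its escort SCAP in the endoplasmic reticulum, and it is itself an SREBP target (gene 231070, chromosome 5, 28071412 to 28078662). It stood at 28.9 and 23.4 CPM in untreated cells, 27.8 and 29.8 CPM at day 2, 34.5 and 32.4 CPM at day 4, and 22.2 and 23.7 CPM at day 6. Day 4 was above every other group, and day 6 overlapped untreated. The log2 fold change was 0.35 at day 4 against untreated (SE 0.12, edgeR adjusted p = 0.0283). It was −0.54 at day 6 against day 4 (SE 0.12, edgeR adjusted p = 0.00673), and −0.19 at day 6 against untreated (95% interval −0.46 to 0.08). The rise was not called without untreated replicate 2 (0.21), day 4 replicate 1 (0.31) or day 4 replicate 2 (0.39), and the fall was not called without day 4 replicate 1 (−0.50) or day 6 replicate 1 (−0.49). Day 6 against untreated was called without untreated replicate 2 (−0.34, edgeR adjusted p = 0.0331).

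**Figure D2:**
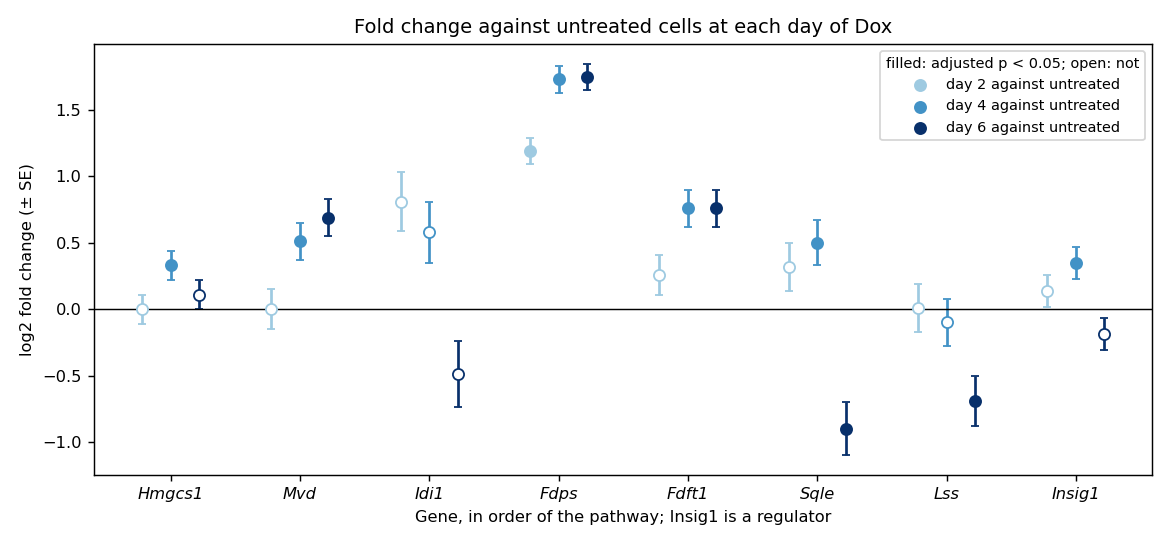
Log2 fold change against untreated (vertical axis, bars ± SE) of each gene, in pathway order along the horizontal axis, at days 2, 4 and 6 in light to dark blue. Filled points had an edgeR adjusted p under 0.05 and open points did not. Fdps reaches 1.75 at day 6, while Sqle and Lss stand at −0.90 and −0.69.

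At day 4, 6 of the 8 genes rose against untreated and none fell, where 48% of all genes were called, 26.1% up and 22% down. The median log2 fold change of the 8 was 0.51, beside −0.02 over all genes tested. The count rested on some libraries, being 2 (Fdps and Fdft1) without day 4 replicate 1 or without untreated replicate 2, 4 without either day 6 library, and 3 in DESeq2 (Mvd, Fdps and Fdft1). Scaled by total counts it was 2 (Fdps and Fdft1), with a median of 0.26 for the 8 and −0.27 over all genes, and of all called genes 28.7% were up, against 54.3% with TMM. Against day 2, 4 of the 8 rose at day 4 (Hmgcs1, Mvd, Fdps and Fdft1), where 37.6% of all genes were called, 21.7% up and 15.9% down, but only 1 of the 8, Fdps, rose without day 2 replicate 2 or without day 4 replicate 1. Of 12 S phase genes 7 rose and none fell at day 4, with summed levels of 3440 and 3100 CPM at day 4 and 2820 and 2580 CPM in untreated cells, though under total counts 1 rose and none fell. Their part in the values of the 8 genes was not tested.

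At day 6, Mvd, Fdps and Fdft1 were above and Sqle and Lss below untreated, so 5 of the 8 were called, where 63.6% of all genes were called, 32% up and 31.6% down. That share is near the background, and the median of the 8 was −0.04, the same as over all genes. The split depended on scaling. Scaled by total counts, which moved the median of all genes to −0.47 and the share of called genes that were up to 23.8%, against 50.3% with TMM, 1 gene was up (Fdps) and 4 were down (Idi1, Sqle, Lss and Insig1), while Mvd was at 0.25 and Fdft1 at 0.32 without passing and Hmgcs1 was at −0.32. The median of the 8 was then −0.47 as well. From day 4 to day 6 none of the 8 rose and 4 fell (Idi1, Sqle, Lss and Insig1), where 29.9% of all genes were called, 15.9% up and 14% down. The count of falling genes was 1 (Sqle) without day 4 replicate 1 and 2 without either day 6 library. Hmgcs1 joined it without day 4 replicate 2 (−0.37) and under total counts. Sqle and Insig1 were both above untreated at day 4 and below day 4 at day 6, a pattern called in 1.44% of all genes. Neither was called at day 4 without untreated replicate 2, without day 4 replicate 1, under total counts or in DESeq2, so the pattern rests on those libraries and settings. Over this interval 6 of 12 S phase genes fell and none rose, and 5 of 6 erythroid markers rose, as they did against untreated, and the part of either in the falls was not tested. Of 12 G2 and M phase genes 9 rose and none fell at day 6 against untreated, but under total counts none rose and 1 fell. In these sorted populations, fewer cells of a type and less RNA per cell cannot be told apart.

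The ratio of raw counts of 2 genes within a library needs no scaling, and describes how the genes differ from each other but not which of them moved. The pairs were chosen after the values were seen, as genes called up over Sqle or Idi1, so the ratios restate the levels above and carry no test. Fdps had 0.761 and 0.990 counts per Sqle count in untreated cells, 1.65 and 1.51 at day 2, 1.78 and 2.37 at day 4, and 5.67 and 5.23 at day 6. Mvd per Sqle was 0.919 and 1.08 in untreated cells, 0.865 and 0.724 at day 2, 0.909 and 1.14 at day 4, and 2.92 and 3.05 at day 6. Fdft1 per Sqle, with the limit set by Ctsb, was 2.82 and 2.79 at day 6, against 0.858 and 0.918 in untreated cells. The day 6 libraries were the highest in these ratios. Fdps, which makes farnesyl diphosphate, stood apart from Idi1, which supplies its substrate, with 12.7 and 16.0 counts per Idi1 count at day 6, against 3.03 and 2.97 in untreated cells.

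**Figure D3:**
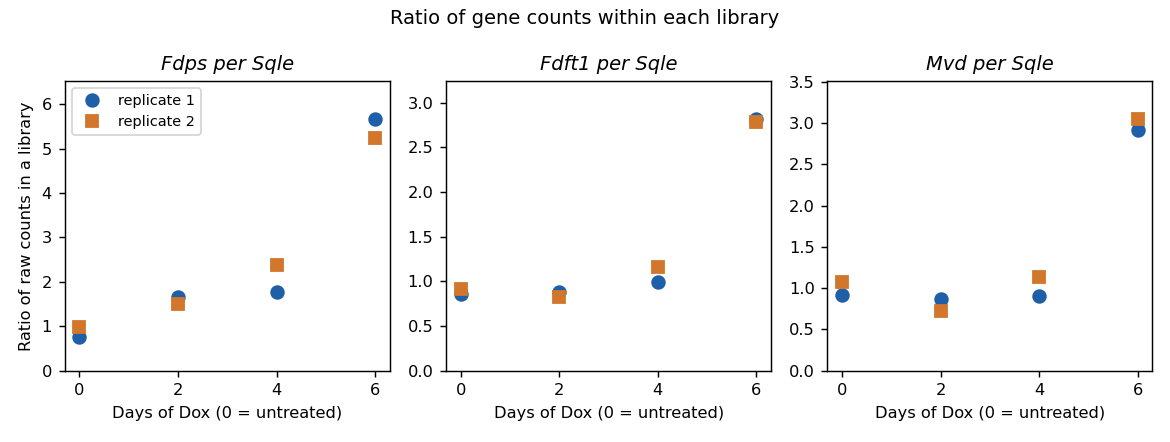
Ratio of raw counts of 2 genes within each library (vertical axes, from 0) against days of Dox (0 for untreated), with circles and squares for replicates 1 and 2. Both day 6 libraries are the highest in each panel, at 5.67 and 5.23 for Fdps per Sqle.

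By the root mean square difference of the 3 log2 fold changes against untreated, some of the 8 genes paired off. Hmgcs1 and Insig1 were nearest to each other (0.19), as were Mvd and Fdft1 (0.21) and Idi1 and Sqle (0.37). Lss was nearest to Insig1 (0.40) and then Sqle (0.41). Fdps had no close partner, with Fdft1 the nearest at 0.96. The genes outside the list most like the median of the 8, over the 3 comparisons, which share the untreated libraries, were Hspa2 (0.039), Ehhadh (0.048), Fam83a (0.052), Ccdc134 (0.071) and Hdac9 (0.072). Of 9179 genes compared, 43 were closer to that median than any of the 8 was itself.

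The other listed enzymes of cholesterol synthesis also moved both ways. Of 14, all tested, none was called at day 2, 4 rose and 1 fell at day 4, and 3 rose and 7 fell at day 6, with medians of 0.16, 0.27 and −0.12. At day 4 48% of all genes were called, 26.1% up and 22% down. At day 6 63.6% of all genes were called, 32% up and 31.6% down. From day 4 to day 6, 1 rose and 8 fell (median −0.44), where 29.9% of all genes were called, 15.9% up and 14% down. Dhcr7, the reductase that makes cholesterol from its immediate precursor, stood at 28.0 and 25.6 CPM at day 6, against 68.8 and 60.5 CPM in untreated cells (log2 fold change −1.27, SE 0.11, edgeR adjusted p = 1.14e-06). Going against the majority, Lbr, a sterol reductase that is also a receptor of the nuclear lamina, averaged 829 ± 30.1 CPM at day 6 and 430 ± 61.3 CPM in untreated cells (SD, n = 2 each; 0.95, edgeR adjusted p = 6.59e-06). Tm7sf2, the other sterol reductase of that step, had 0.83 and the isomerase gene Ebp 0.31. Tm7sf2 was not called without day 6 replicate 1 (0.71), in DESeq2 or under total counts (0.39), nor Ebp without untreated replicate 2 (0.11) or either day 6 library (0.31 each), and Ebp was at −0.13 under scaling by total counts. With the 7 enzymes among the 8 genes, 21 enzymes gave 6 up and 9 down at day 6 against untreated, and 1 up and 11 down at day 6 against day 4. Scaled by total counts, the 21 gave 2 up and 10 down against untreated, and 0 up and 13 down against day 4. Of all 12330 genes, 2078 were then up and 6647 down against untreated, and 881 up and 2646 down against day 4. At day 4 against untreated the 21 enzymes gave 9 up and 1 down with TMM, and 3 up and 2 down under total counts. Under total counts 1816 of all 12330 genes were up there and 4519 down.

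Of 8 genes that process SREBP or sense sterols, 3 rose and 2 fell at day 6. Their median was 0.06, beside −0.04 over all genes, and under total counts none rose and 5 fell (median −0.37). The 5 called of 8 are near the 63.6% of all genes, of which 32% were up and 31.6% down. Under total counts 2078 of all 12330 genes rose at day 6 and 6647 fell, with a median of −0.47. Scap, the escort that Insig1 holds back, averaged 110 ± 2.97 CPM at day 6 and 189 ± 9.93 CPM in untreated cells (log2 fold change −0.78, SE 0.07, edgeR adjusted p = 2.49e-06). Mbtps1, the site-1 protease that cuts SREBP, fell by 0.65, while Mbtps2, the site-2 protease, had 0.72. Under scaling by total counts Mbtps2 did not pass (0.29). Of 15 uptake and trafficking genes 14 were tested, of which 8 rose and 2 fell at day 6 (median 0.39), and under total counts 4 rose and 4 fell (median −0.05). Npc2, which hands cholesterol on inside the lysosome, had 1.77, the lysosomal lipase gene Lipa 1.48 and the sterol carrier gene Stard3 1.66, while Stard4, another sterol carrier, fell by 0.47, a call lost without untreated replicate 1 (−0.34) or day 6 replicate 2 (−0.42).

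**Figure D4:**
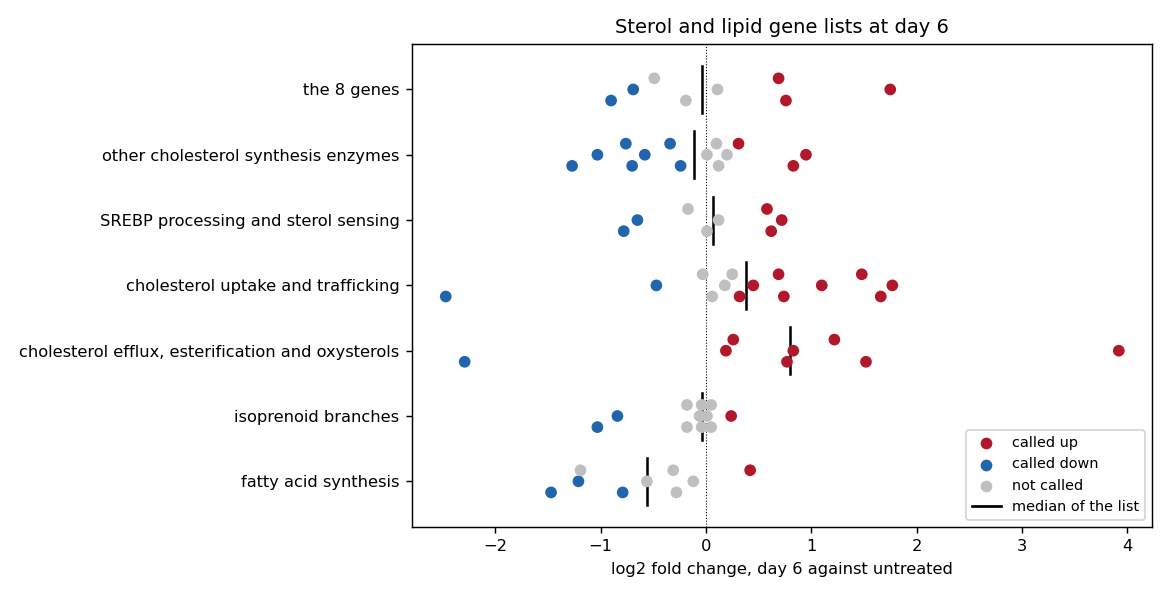
Log2 fold change at day 6 against untreated (horizontal axis) of the genes of each list (rows, each point a gene), with red for called up, blue for called down, grey for not called, and a bar at the list's median. The 8 genes straddle 0, with a median of −0.04.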

How the data were processed

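Per the labels' protocols, RNA of sorted cells was prepared with a column kit and sequenced from standard Illumina libraries. Per the file headers, each deposited table gives a raw count and a gene length per Entrez ID. Per the submitters' processing notes, featureCounts and the build mm10 were used, beside limma 3.22.0, edgeR 3.8.2 and CASAVA 1.8.2. No settings are given there. Genes of low expression were absent, since the third highest CPM of every gene was at least 0.501.

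RefSeq (GRCm38.p6) gave symbols for 12555 of 12830 IDs. All 8 libraries entered 1 group means fit in R 4.3.3 with edgeR 4.0.16 (filterByExpr, which removed 500 genes with 0.0267% of counts, TMM, glmQLFit, glmQLFTest), with Benjamini-Hochberg adjustment over 12330 genes and a threshold of 0.05. The fit had 4 residual and 7.08 prior degrees of freedom. SE is the log2 fold change over the root of its F value, and intervals are 95%. Gene length set the levels per kilobase. The script was tested on simulated data. DESeq2 1.42.0 and other settings were alternatives. Replicates of a group were also compared per gene by chi-square, with expected counts set by raw totals and not by TMM. The median values ran from 0.716 at day 6 to 5.76 at day 2, where sampling gives 0.455. Differences of scaling between replicates enter these values, and the day 2 replicates had TMM factors of 0.937 and 1.12.

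Members and lists were chosen with earlier results of these data known. Named list genes were up to 4 per list with the largest called change at day 6, plus those against the majority. Some genes that this rule names are not reported here.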

Additional observations from a re-analysis of the deposited data

How the results depend on the processing

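Scaling with RLE factors and fitting without the filter changed no call among the 40 comparisons of the 8 genes. With the replicate block, on numbers that only name libraries (correlations of same-numbered deviations from −0.13 to 0.209), 612 genes in place of 756 were called at day 2, the calls of the 8 genes against untreated and between days were as without it, and the test for any difference called 8 genes in place of 7. Scaling by total counts left 2 of the 8 called at day 4 against untreated, where it called 6335 of all genes in place of 5924. DESeq2 left 3 there and 2 at day 4 against day 2. Of all genes it called 4676 in place of 5924, and 3577 in place of 4640. Fitting the groups compared alone left 3 at day 4, and gave 232 of all genes at day 2. A minimum change of 1.5-fold left 1 of the 8 at day 4, 1 at day 6, 0 at day 4 against day 2 and 1 at day 6 against day 4, and 24, 2062 and 3674 of all genes at days 2, 4 and 6, 1434 at day 4 against day 2 and 554 at day 6 against day 4. Leaving out each library gave 1 to 2 of the 8 at day 2, 2 to 6 at day 4, 4 to 6 at day 6, 1 to 4 at day 4 against day 2, 1 to 5 at day 6 against day 4, and 5 to 8 for any difference. The counts of all genes then ran from 325 to 1325 at day 2 and from 1726 to 4193 at day 6 against day 4. For the drop under a minimum change, the stricter question is the cause by construction, and for the others the cause was not tested.

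Some signs turned, mostly of values that had not passed the test, but also of Ebp, Dhdds, Acly and Mcm5, which were called up at day 6. Under scaling by total counts the turned values were Lss (−0.18) and Insig1 (−0.03) at day 2, Hmgcs1 (−0.32), Ebp (−0.13), Dhdds (−0.20), Acly (−0.01) and the S phase gene Mcm5 (−0.07) at day 6, and Mvd (−0.01) and Fdps (−0.16) at day 6 against day 4. Lss at day 2 was 0.00 with the groups compared alone. Leaving out each library, Lss ran from −0.07 to 0.09 and Insig1 from 0.00 to 0.31 at day 2, and Lss from −0.24 to 0.02 at day 4. At day 4 against day 2 Idi1 ran from −0.57 to 0.02, Lss from −0.25 to 0.02 and Sqle from −0.10 to 0.41, and at day 6 against day 4 Fdps ran from −0.02 to 0.08. With 32 to 106 counts per library, Idi1 had the widest interval of the 8 genes in each comparison.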

Other observations

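Most tested genes for moving, storing or oxidising cholesterol were higher at day 6. Of 9 genes of efflux, esterification and oxysterols 8 were tested, and 7 rose and 1 fell at day 6 against untreated (median log2 fold change 0.80, beside −0.04 over all genes, of which 32% were called up). Scaled by total counts, 3 rose and 1 fell (median 0.37, beside −0.47 over all genes). Cyp27a1, which makes an oxysterol from cholesterol, averaged 20.7 ± 2.78 CPM at day 6 and 1.35 ± 0.105 CPM in untreated cells (SD, n = 2 each; 3.92, SE 0.28, edgeR adjusted p = 2.57e-07). Nceh1, a cholesteryl ester hydrolase gene, averaged 175 ± 0.457 CPM at day 6 and 61.0 ± 8.49 CPM in untreated cells, and the exporter gene Abcg1 119 ± 2.85 CPM at day 6 and 51.0 ± 3.48 CPM in untreated cells. Nr1h3, which encodes the oxysterol receptor LXR alpha, fell instead, with 2.25 and 1.08 CPM at day 6, against 8 and 8.3 CPM in untreated cells (−2.29, SE 0.32, edgeR adjusted p = 8.13e-05).

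Of 10 fatty acid synthesis genes 9 were tested, and 1 rose and 3 fell at day 6 (median −0.56), or 0 and 8 under total counts (median −0.99). Of all 12330 genes tested, 63.6% were called at day 6, 32% up and 31.6% down. Under total counts 2078 of all genes rose and 6647 fell, with a median of −0.47. Fads1, a fatty acid desaturase, averaged 20.8 ± 0.370 CPM at day 6 and 57.7 ± 6.84 CPM in untreated cells (−1.47, edgeR adjusted p = 1.81e-06), and Scd2 and Fasn fell by 1.21 and 0.79. Acly, which makes cytosolic acetyl-CoA, had 0.42 and was at −0.01 under total counts. Of 11 genes of the isoprenoid branches, which use the products of Fdps, 1 rose and 2 fell, or 0 and 9 under total counts. With TMM the called share of the 11 was thus below that of all genes. Fntb, a farnesyltransferase subunit, fell by 1.03 (edgeR adjusted p = 0.000598) and Rabggtb by 0.84 (edgeR adjusted p = 0.000236), while the dolichol synthesis gene Dhdds had 0.24, not called without untreated replicate 2 or either day 6 library, and −0.20 under total counts. At day 2 none of the 11 was called, where 6.13% of all genes were.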
